A study of Mus musculus with 4 samples.

Results

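The STAT and IRF transcription factors *Stat2*, *Stat3*, *Stat6*, *Irf1*, *Irf2*, *Irf3*, *Irf5*, *Irf7* and *Irf9* were followed in loaded and unloaded MLO-Y4 cells. They were taken by gene name and make up 9 of the 55450 genes in the count table; each name occurred once. MLO-Y4 is an immortalized mouse osteocyte-like cell line, and all 4 libraries carry the genotype label WT. RNA-seq was performed on 2 loaded cultures, kept on collagen-coated elastic silicone plates and stretched for 12 h at 0.5 Hz and 20% strain, and on 2 unloaded cultures, kept for 12 h on standard culture plates in the incubator of the stretching device. Stretch and plate therefore cannot be told apart, and a line in culture has none of the other cells of bone. The labels do not state whether replicates were grown independently, so the p-values measure only the spread between these libraries.

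STAT proteins lie in the cytoplasm until a receptor-bound JAK kinase phosphorylates them. They then enter the nucleus as dimers. Type I interferon leads to ISGF3, a complex containing STAT2 and IRF9 that binds the interferon-stimulated response element (ISRE), whereas type II interferon leads to STAT dimers that bind the gamma-activated site (GAS). IRF3 and IRF7 are activated downstream of nucleic acid sensors and switch on interferon genes. *Stat2*, *Irf1*, *Irf7* and *Irf9* are themselves known interferon-induced genes and are called interferon-induced here. *Stat3*, *Stat6*, *Irf2* and *Irf3* are largely present without interferon and are called constitutive. *Irf5*, whose inducibility depends on the cell type, was set apart. This grouping follows general knowledge of the genes.

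Library totals ranged from 28941994 to 32185693 counts. Expression is given as CPM, the counts of a gene relative to the TMM-scaled total of its library, where 3 counts, taken as the floor, correspond to 0.0930 to 0.103 CPM. This floor covers counting error only. Of 8 osteocyte markers, *Pdpn*, *Phex*, *Gja1* and *Cd44* were well expressed, and *Dmp1* stayed between 0.396 and 0.482 CPM. *Pdpn* was higher in loaded cells (log2 fold change 0.59, edgeR adjusted p = 0.0334). *Sost* had 4 counts in loaded replicate 1 and 0 elsewhere, and *Mepe* was at 0 in all libraries. *Fgf23* had 4 and 9 counts in unloaded and 0 in both loaded libraries. The mature osteocyte markers *Dmp1*, *Sost*, *Mepe* and *Fgf23* were thus at or near 0. Of 6 osteoblast markers, *Col1a1* and *Runx2* were expressed (means of 1012 and 48.9 CPM in unloaded cells), and *Sp7*, *Bglap*, *Alpl* and *Ibsp* were at or near 0. The 3 endothelial markers summed to between 1.24 and 3.37 CPM per library. Of 7 markers of macrophages and other immune cells, *Ptprc* reached at most 0.0930 CPM and *Adgre1* at most 0.124 CPM, *Cd68* measured 5.58 and 4.65 CPM in unloaded and 3.07 and 2.82 CPM in loaded libraries (log2 fold change -0.80, edgeR adjusted p = 0.216), and *Csf1r*, a macrophage marker, was high in every library (1558 to 1584 CPM). The summed level of these 7 markers, almost wholly *Csf1r*, ranged from 1579 to 1589 CPM in unloaded and from 1561 to 1565 CPM in loaded libraries. *Cd68* was thus lower in both loaded libraries by about as much as *Stat2* and *Irf9* below, and its part in the results was not tested. In bulk RNA, fewer cells expressing a gene and less RNA per cell cannot be told apart.

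All 9 factors passed the filter on low counts. With edgeR's quasi-likelihood test and adjustment over all 16269 tested genes, 0 of the 9 passed the study's threshold of an adjusted p under 0.01, against a background of 0.0983% of tested genes. At an unadjusted p under 0.05, 5 of the 9 passed, all lower in loaded cells, against 14.3% of tested genes in either direction and 7.46% lower; limma-voom also called 0 at 0.01. At an adjusted p under 0.05, edgeR called 3 of the 9 lower (*Irf7*, *Stat2* and *Irf9*) and 0 higher; 0.565% of tested genes were called lower and 0.904% in either direction. Not all 3 calls were kept in any fit without 1 library, where a lone library in its group limits what calls can show. Over these fits the log2 fold change ran from -1.92 to -1.61 for *Irf7*, -0.90 to -0.71 for *Stat2* and -0.82 to -0.75 for *Irf9*. Without the filter on low counts *Irf7* alone was called, and the edgeR adjusted p was 0.0736 for *Stat2* and 0.0880 for *Irf9*. That fit called 48 of its 26564 tested genes lower at 0.05, against 92 of 16269 in the main fit. DESeq2 at an adjusted p under 0.01, the test and threshold of the study, called 4 of the 9 lower, adding *Irf1*. In that test 1.55% of the genes with an adjusted p were called lower. Both loaded libraries lay below both unloaded libraries for 7 of the 9 factors, which also held for 24.5% of tested genes. Only *Stat3* lay above in both (22.1% of tested genes), and the groups overlapped for *Stat6*. The median log2 fold change of the 9 was -0.56, against -0.01 over all tested genes.

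**Figure D1:**
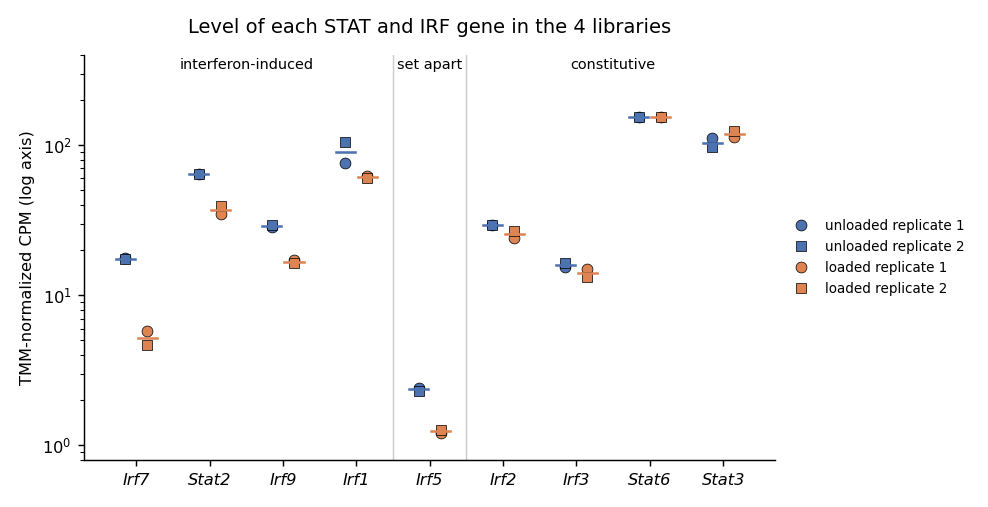
TMM-normalized CPM on a log axis for each factor, with 1 point per library (circle, replicate 1; square, replicate 2; blue, unloaded; orange, loaded) and a bar at the group mean of 2 libraries. The loaded points of *Irf7*, *Stat2*, *Irf9*, *Irf1* and *Irf5* sit below the unloaded points, and by a smaller distance so do those of *Irf2* and *Irf3*. Those of *Stat3* sit above, and those of *Stat6* overlap them.

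*Irf7* encodes the interferon-induced factor that amplifies type I interferon production. Its locus is chromosome 7, 141262706 to 141266481, minus strand (GRCm38), and *Phrf1* on the opposite strand shares 1.19% of its exon bases. Unloaded replicates 1 and 2 held 511 and 531 counts and loaded replicates 1 and 2 held 186 and 138, or 17.6 and 17.5 CPM against 5.76 and 4.63 CPM. The unloaded replicates were almost equal, and both loaded replicates lay far below them. Mean expression went from 17.6 ± 0.0518 to 5.20 ± 0.802 CPM (SD, n = 2 per group). The log2 fold change, -1.75 (95% interval -2.18 to -1.33, standard error 0.173), corresponds to a level 3.37-fold lower (edgeR adjusted p = 0.0197). DESeq2 gave an adjusted p of 7.69e-09. *Irf7* had the largest decrease of the 9 factors, and 145 of the tested genes (0.891%) had a more negative log2 fold change.

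*Stat2* and *Irf9* encode subunits of ISGF3. The locus of *Stat2* is chromosome 10, 128270559 to 128292849, plus strand. Unloaded replicates measured 64.6 and 64.7 CPM and loaded replicates 34.6 and 39.4 CPM. The groups were far apart relative to either pair of replicates. On the log2 scale the fold change was -0.81 (95% interval -1.06 to -0.55, standard error 0.106), with an edgeR adjusted p = 0.0378 and a DESeq2 adjusted p of 1.1e-06.

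*Irf9*, the DNA-binding subunit (chromosome 14, 55603571 to 55610030, plus strand), measured 28.4 and 29.4 CPM in unloaded and 17.3 and 16.3 CPM in loaded libraries. Its decrease was close in size to that of *Stat2*, at -0.79 on the log2 scale (95% interval -1.05 to -0.52, standard error 0.108), an edgeR adjusted p = 0.0410 and a DESeq2 adjusted p of 0.00130. With the replicate number added to the fit, DESeq2 gave *Irf9* an adjusted p of 0.0703, so its call was lost. On the same strand, 2.28% of the exon bases of *Irf9* are shared with *Rnf31*, and reads from these bases cannot be assigned by position.

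Per kilobase of exon, *Stat2* and *Irf9* stood in a ratio of 2.03 ± 0.0460 in unloaded and 2.01 ± 0.265 in loaded cells (SD, n = 2 per group). The ratio differed between the groups by less than the spread of the loaded replicates.

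*Irf1*, which drives antigen presentation genes after type II interferon (chromosome 11, 53770014 to 53778374, plus strand), measured 75.6 and 104.7 CPM in unloaded and 61.9 and 60.5 CPM in loaded libraries. The loaded libraries were lower and alike, while the unloaded replicates differed more than those of any other member in CPM. Its log2 fold change was -0.56 (95% interval -0.95 to -0.17, standard error 0.159), with an edgeR adjusted p = 0.193 and a DESeq2 adjusted p of 0.00891. The DESeq2 call was lost when the replicate number was added to the fit. Without unloaded replicate 2 it was -0.31, and without unloaded replicate 1 it was -0.77 (edgeR adjusted p = 0.0411), so its size rested on which unloaded library was used.

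**Figure D2:**
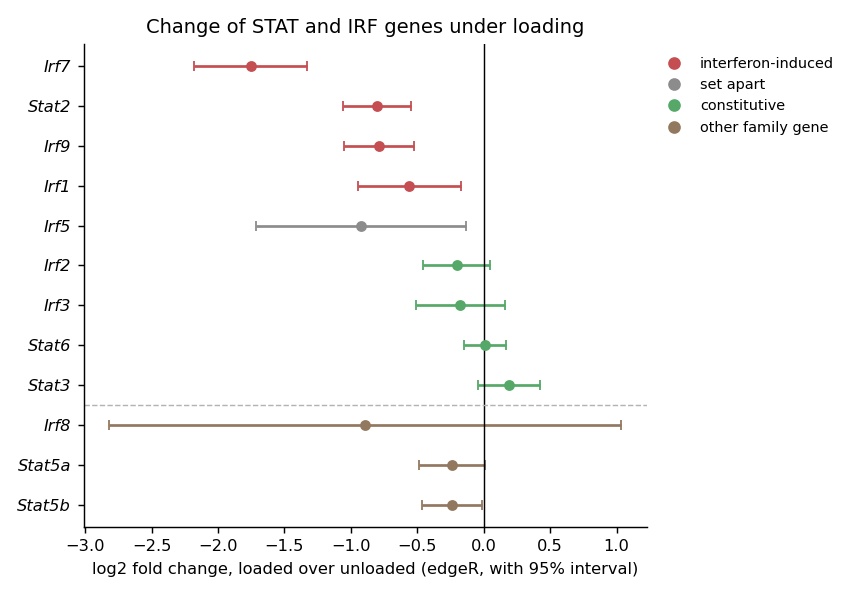
Log2 fold change of loaded over unloaded cells from edgeR, with bars for the 95% interval, for the 9 factors (above the dashed line) and *Irf8*, *Stat5a* and *Stat5b* (below it). The intervals of *Irf7*, *Stat2* and *Irf9* end below -0.52, those of the 4 constitutive genes include 0, and that of *Irf8* is wide because at most 15 counts were recorded per library.

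The promoters of the factors were searched for the ISRE core GAAANNGAAA on both strands and for the GAS sequence TTCNNNGAA, which is its own reverse complement. RefSeq windows (GRCm38.p6) of 250 bases before to 50 after the transcription start were used, and all 9 factors had at least 1 window (11 in all). The ISRE core was found in 2 of the 9 genes, *Stat2* and *Irf2*, and in 3.99% of the 27025 genes with a window (3.44% of all 32851 windows). The GAS sequence was found in 2 of the 9, *Irf1* and *Irf2*, and in 9.55% of genes (8.30% of windows). The 3 matching stretches are shown because they set 2 interferon-induced genes with 1 motif each beside a constitutive gene with both. All are on the plus strand, 5′ to 3′, with the motif in capitals:
*Stat2* (chr10:128270251-128270310), ISRE core on the minus strand: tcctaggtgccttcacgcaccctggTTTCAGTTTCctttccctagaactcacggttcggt
*Irf1* (chr11:53769899-53769957), GAS: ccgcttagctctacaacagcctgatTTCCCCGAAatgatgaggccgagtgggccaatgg
*Irf2* (chr8:46739495-46739554), ISRE core and then GAS: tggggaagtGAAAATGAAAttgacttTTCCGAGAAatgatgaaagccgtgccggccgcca

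The motif in *Stat2* begins 222 bases before the start and the one in *Irf1* 90 bases before it. Those in *Irf2* begin 241 and 224 bases before it. These starts are those of the RefSeq windows and can differ from the locus coordinates given for each gene. The windows of *Irf9*, for example, lie inside the locus given for it. *Irf7* and *Irf9*, lower in loaded cells, had no match to these letters in their windows, and neither had *Stat3*, *Stat6*, *Irf3* or *Irf5*. *Irf2*, with both motifs, had a log2 fold change of -0.20. A match describes letters in a window, not a binding site.

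*Irf5*, a factor downstream of Toll-like receptors (chromosome 6, 29526625 to 29541871, plus strand), was the least expressed of the 9, with 70 and 70 counts in unloaded and 39 and 38 in loaded libraries, or 2.41 and 2.31 CPM against 1.21 and 1.28 CPM. Replicates were close, but with so few counts the interval of the log2 fold change of -0.92 ran from -1.72 to -0.13 (standard error 0.325), and the edgeR adjusted p was 0.285. Of its exon bases 14.2% overlap *Tnpo3* on the opposite strand, which is expressed at 157 ± 8.73 CPM in unloaded and 168 ± 4.59 CPM in loaded cells (SD, n = 2 per group). Whether reads were counted by strand is not given in the sources used here, and the part of *Tnpo3* reads in the counts of *Irf5* was not tested. Opposite-strand genes also share 3.4% of the exon bases of *Irf1* (*Gm17334*), 2.56% of those of *Irf3* (*Bcl2l12*) and 0.909% of those of *Stat6* (*Nab2*).

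Among the constitutive factors, *Stat6*, which mediates the response to interleukin-4, was the flattest. Its locus is chromosome 10, 127642986 to 127660957, plus strand, and it measured 153 and 154 CPM in unloaded and 154 and 155 CPM in loaded libraries. Its log2 fold change was 0.01 with a 95% interval of -0.15 to 0.17 (edgeR adjusted p = 0.965).

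*Stat3*, the main transducer of the interleukin-6 cytokines, was the only member with both loaded libraries higher. Its locus is chromosome 11, 100885098 to 100939540, minus strand, and it measured 111 and 97.3 CPM in unloaded and 114 and 124 CPM in loaded libraries. The gap between the groups, from 111 to 114 CPM, was smaller than the distance between replicates. The log2 fold change was 0.19 with a 95% interval of -0.04 to 0.42 (edgeR adjusted p = 0.433). Its 3′ end overlaps that of *Stat5a* on the opposite strand over 72 bp, or 0.756% of its exon bases.

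*Irf3*, which initiates interferon transcription once phosphorylated (chromosome 7, 44997648 to 45002848, plus strand), measured 15.4 and 16.5 CPM in unloaded and 14.97 and 13.3 CPM in loaded libraries, a log2 fold change of -0.18 with a 95% interval of -0.51 to 0.16 (edgeR adjusted p = 0.625). *Irf2*, which competes with IRF1 for the same DNA element (chromosome 8, 46739732 to 46847458, plus strand), measured 29.3 and 29.3 CPM in unloaded and 24.2 and 26.7 CPM in loaded libraries, a log2 fold change of -0.20 with a 95% interval of -0.46 to 0.05 (edgeR adjusted p = 0.441). Both genes lay slightly lower in loaded cells, and their intervals leave room for decreases of up to 0.51 and 0.46 on the log2 scale.

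The interferon-induced and constitutive factors were then set side by side. The log2 fold changes of the 4 interferon-induced genes ran from -1.75 to -0.56 (median -0.80), and those of the 4 constitutive genes from -0.20 to 0.19 (median -0.08). The 95% intervals of *Irf7*, *Stat2* and *Irf9* lay entirely below those of all 4 constitutive genes. The interval of *Irf1* lay below those of *Stat3* and *Stat6* and overlapped those of *Irf2* and *Irf3*.

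In each library the mean log2 CPM of the interferon-induced genes was compared with that of the constitutive genes. The difference was -0.41 and -0.26 in unloaded and -1.22 and -1.31 in loaded libraries. It thus widened by -0.93 on the log2 scale, from -0.34 ± 0.105 to -1.26 ± 0.0605 (SD, n = 2 per group), and this shift was larger than either spread. The mean of the interferon-induced genes changed by -0.97 and that of the constitutive genes by -0.05. No p-value is given, because 2 against 2 libraries cannot go below an exact two-sided permutation p of 0.333 and the genes were grouped with earlier results of these data known.

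**Figure D3:**
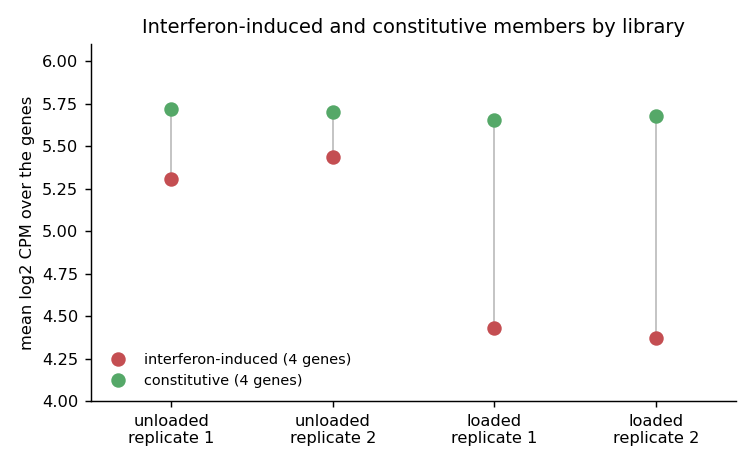
Mean log2 CPM over the 4 interferon-induced genes (red) and the 4 constitutive genes (green) in each library, joined by a grey line. The green points stay between 5.65 and 5.72, while the red points lie at 5.31 and 5.44 in unloaded and at 4.43 and 4.37 in loaded libraries.

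Levels can be compared between genes only per length, here as CPM per kilobase of the union of exons. *Stat6* had the highest level (34.9 ± 0.227 unloaded and 35.2 ± 0.145 loaded, SD, n = 2 per group), followed by *Irf1* (22.7 ± 5.18 and 15.4 ± 0.254) and *Stat3* (10.9 ± 1.01 and 12.5 ± 0.749). In unloaded cells *Stat3* and *Stat2* (10.9 ± 0.0176) overlapped, and so did *Irf7* (4.65 ± 0.0137) and *Irf3* (4.64 ± 0.220), between *Irf9* at 5.37 ± 0.130 and *Irf2* at 3.96 ± 0.00643. *Irf5* was lowest, at 0.812 ± 0.0244. In loaded cells every neighbouring pair in this order by exon union was separated. *Stat2* stood at 6.24 ± 0.573, and *Irf9* (3.12 ± 0.126) and *Irf7* (1.38 ± 0.212) now followed *Irf3* (4.10 ± 0.346) and *Irf2* (3.44 ± 0.239). With the longest transcript as the length, *Irf1* and *Stat6* overlapped in unloaded cells (35.4 and 49.0 against 40.5 and 40.9 CPM per kilobase in replicates 1 and 2), and *Irf7* lay below *Irf2* in both libraries (means 5.42 against 7.39).

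*Irf7* and *Irf3* did not differ beyond their spread per kilobase of exon in unloaded cells, with a ratio of 1.04 and 0.968 in the 2 libraries, and the ratio was 0.351 and 0.318 in the loaded libraries. The ratio of *Stat2* to *Stat3* went from 1.003 ± 0.0940 to 0.500 ± 0.0159, and that of *Irf1* to *Irf2* from 5.72 ± 1.298 to 4.49 ± 0.386 (SD, n = 2 per group). The last difference was smaller than the spread of the unloaded replicates, whose ratios were 4.81 and 6.64. The size of such a ratio depends on the lengths used, but its change between the groups does not.

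Shares were taken within the STAT genes and within the IRF genes reported here, as means of 2 libraries. Among the STAT transcripts, *Stat6* made up 49.2% of the summed CPM per kilobase in unloaded and 53.4% in loaded cells. *Stat2* went from 15.4% to 9.47% and *Stat3* from 15.4% to 18.9%. Among the IRF transcripts, *Irf1* held 53.4% and 55.2%, so that its share did not drop with its level. *Irf7* went from 11.1% to 4.93%, and *Irf3* from 11.1% to 14.7%. The share of *Irf3* rose although its own level did not (log2 fold change -0.18). The size of a share depends on the lengths used.

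**Figure D4:**
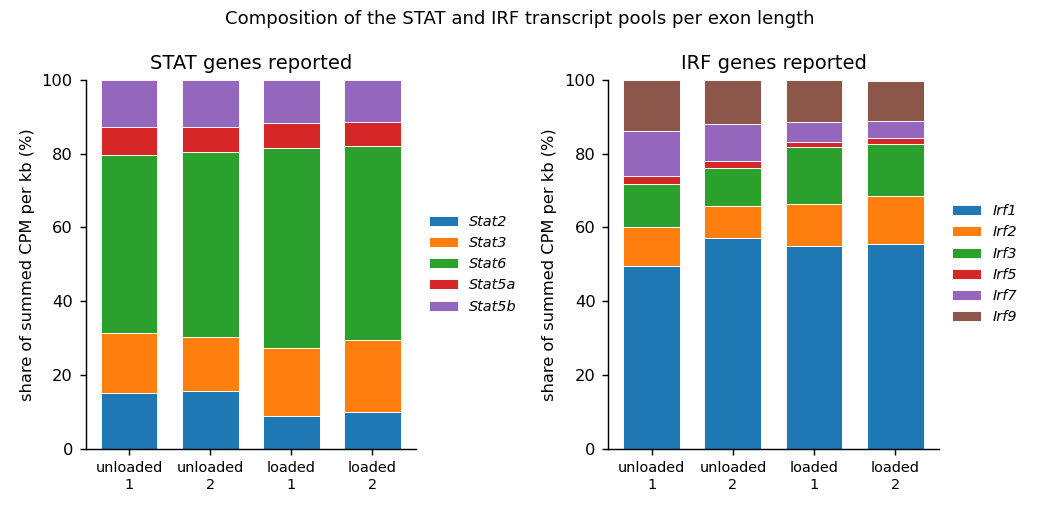
Stacked bars of the share of each gene in the summed CPM per kilobase of exon of the STAT genes (left) and the IRF genes (right) reported here, for each of the 4 libraries; genes under 1% in every library (*Stat4*, *Irf4*, *Irf8*) are not drawn. *Stat2* takes a smaller segment in the loaded libraries, and *Irf7* shrinks from 12.2% and 10.1% to 5.39% and 4.47%.

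Of 5 further STAT and IRF genes, 3 were tested. At an adjusted p under 0.01 edgeR, limma-voom and DESeq2 called 0 of them, edgeR also called 0 at 0.05, and 1, *Stat5b*, had an unadjusted edgeR p under 0.05. *Stat5a* and *Stat5b*, which respond to growth hormone and prolactin, had log2 fold changes of -0.24 (95% interval -0.49 to 0.01) and -0.24 (-0.47 to -0.01). *Irf8*, a factor of myeloid cells, had 15 and 14 counts in unloaded and 4 and 12 in loaded libraries, and its interval of -2.82 to 1.03 leaves its direction unsettled. *Irf4* had 0 counts in every library. *Stat4* was counted only in unloaded replicate 2 (9 counts).

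The genes that act on these factors and the genes they act on were examined in 7 lists. Of 12 tested receptors and kinases, *Jak2*, which phosphorylates STATs at the type II interferon receptor, was called lower by edgeR at 0.05, at -0.46 on the log2 scale (adjusted p = 0.0445, standard error 0.0658). This call was lost without any 1 of the 4 libraries and without the filter on low counts. DESeq2 called 2 of the list lower at 0.01, *Jak2* and *Ifngr1*, the type II interferon receptor chain that binds the ligand. It called 1.55% of the genes with an adjusted p lower. An unadjusted edgeR p under 0.05 was found for 5 of the 12, not all of them lower in loaded cells, against 14.3% of tested genes. *Ifngr1*, named after its values were seen, measured 37.0 and 48.5 CPM in unloaded and 17.0 and 25.1 CPM in loaded libraries, or -1.02 on the log2 scale (edgeR adjusted p = 0.127). The list's median was -0.19. For this list and the next, the background at 0.05 was 0.565% of tested genes called lower by edgeR. *Il13ra1*, the remaining gene of the list, had 5 counts in unloaded replicate 1 and none elsewhere. Of 10 kinases and adaptors that activate IRF3, IRF5 and IRF7, 1 was called, *Ikbke*, whose kinase phosphorylates IRF3 and IRF7 (log2 fold change -1.02, edgeR adjusted p = 0.0207, standard error 0.103); the median of the list was -0.03. The call was not kept without either loaded library. Over the fits without 1 library the log2 fold change of *Ikbke* ran from -1.08 to -0.95.

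Among 16 inhibitors of STAT and IRF proteins, edgeR and limma-voom called 0 at an adjusted p under 0.05, edgeR gave 3 an unadjusted p under 0.05, near the share of 14.3% among all tested genes, and DESeq2 called 1 at 0.01. This was *Usp18*, which silences the type I interferon receptor and is also listed among the ISGF3 targets; it measured -1.57 on the log2 scale (edgeR adjusted p = 0.0510, standard error 0.233). *Pias2* and *Ptpn6* had the next smallest p, with log2 fold changes of 0.23 and -1.57 (edgeR adjusted p = 0.262 and 0.307). The interferon gene *Ifnb1* had 8 and 31 counts in unloaded and 4 and 0 counts in loaded libraries, and did not pass the filter for testing.

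Target genes of the factors were examined next. All 15 listed targets of ISGF3 had a negative log2 fold change (median -1.74); edgeR called 9 at an adjusted p under 0.05 and 6 at 0.01. The smallest p-values belonged to *Ifit3*, *Oasl2*, *Ifit1*, *Parp14* and *Oas2*, with log2 fold changes between -2.31 and -1.42. Without the filter on low counts there were 0 calls at 0.01 and 9 at 0.05, and that fit called 0 of its 26564 tested genes at 0.01. The calls at 0.01 were also not kept without either loaded library. With a lone loaded library, such a loss cannot be laid to these targets. The median was -1.63 without loaded replicate 1 and -1.72 without loaded replicate 2. All 14 targets of IRF1 were also negative (median -0.58). Of these, 3 passed 0.05, namely *Cxcl10* (-1.53), *Gbp3* (-1.23) and *Gbp2* (-0.78), given as log2 fold changes. At 0.01, 2 passed, and 0 in the fit without the filter, where 0 of all tested genes did. Nor were the 2 kept without either loaded library, and the medians there were -0.52 (without loaded replicate 1) and -0.59 (without loaded replicate 2). Among the 16269 tested genes 8380 had a negative log2 fold change. Of these tested genes, edgeR called 0.565% lower at 0.05 and 0.0983% in either direction at 0.01. The negative targets of ISGF3 numbered 14 without loaded replicate 2. Those of IRF1 numbered 13 without unloaded replicate 1, unloaded replicate 2 or loaded replicate 1. The targets were listed with earlier results of these data known, and several interferon-stimulated genes answer to more than 1 of these factors.

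For 18 targets of STAT3 the median log2 fold change was -0.01, 10 were negative, and edgeR and limma-voom called 0 at an adjusted p under 0.05, with an unadjusted p under 0.05 in 3 genes, close to the 14.3% of all tested genes. DESeq2 called 1 higher at 0.01, *Hif1a*. The list holds *Stat3* itself. *Icam1* had -1.53 (standard error 0.305, edgeR adjusted p = 0.108), *Hif1a* 0.33 (adjusted p = 0.139) and *Mcl1* 0.14 (adjusted p = 0.327). Of 12 targets of STAT6 5 passed the filter and 5 had 0 counts in every library. Of those tested, edgeR called 0 at 0.05, limma-voom 0 and DESeq2 0, and 0 had an unadjusted p under 0.05. *Il4ra*, *Cish* and *Klf4* had the smallest p, with log2 fold changes of -0.22, -0.50 and 0.12.

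**Figure D5:**
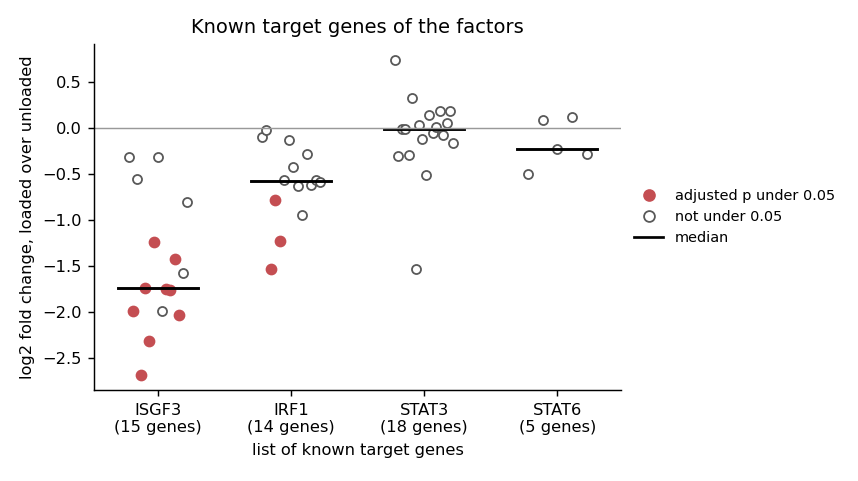
Log2 fold change (loaded over unloaded, edgeR) of each tested gene in the lists of ISGF3, IRF1, STAT3 and STAT6 targets; filled red points passed an adjusted p of 0.05, open points did not, and the bar marks the median. The medians lie at -1.74, -0.58, -0.01 and -0.22.

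The same promoter letters were counted for these targets. The ISRE core was present in the windows of 6 of 10 ISGF3 targets with a RefSeq window, 5 of 11 IRF1 targets, 2 of 16 STAT3 targets and 1 of 9 STAT6 targets, against the 3.99% of all genes. The GAS sequence was present in 2 of 10, 1 of 11, 2 of 16 and 2 of 9, against 9.55%. The lists hold known targets of factors that bind such elements, so these shares depend on the choice of the lists and test nothing.

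The genes whose log2 CPM ran closest to each interferon-induced factor over the 4 libraries were sought among 9684 tested genes of at least 10 CPM, by Euclidean distance after centring each gene on its mean. They were *Oas3* (0.133), *Uba7* (0.138) and *Oas2* (0.234) for *Irf7*, and *Gbp2* (0.0725), *Tmem229b* (0.101) and *Irgm1* (0.107) for *Stat2*. For *Irf1* they were *Apobec3* (0.0961), *Igfbp7* (0.123) and *Gys1* (0.128), and for *Irf9* *Gdpd5* (0.0523), *Ltbp3* (0.0544) and *Ltbp2* (0.0557). The 4 libraries and the 2 groups are shared by all of these genes, so that any gene that is lower in loaded cells by a similar amount lies close.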

How the data were processed

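RNA-seq counts of 2 unloaded and 2 loaded cultures were used. The authors depleted ribosomal RNA, mapped trimmed and filtered reads to mm10 with HISAT2 (2.1.0), assembled transcripts with StringTie (1.3.5) and deposited whole-number counts per gene made by the count script of StringTie; strandedness and annotation release are not given in the sources used here. All 55450 gene identifiers, with their versions, are in GENCODE M21 (GRCm38), which gave coordinates and exon lengths.

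Genes were filtered with filterByExpr (count minimum 10), scaled by TMM and tested with glmQLFit and glmQLFTest of edgeR (4.0.16) in R (4.3.3), with Benjamini-Hochberg adjustment over 16269 genes and the threshold of the study, 0.01. The study applied this threshold with DESeq2 (1.32.0). Standard errors are the log2 fold change divided by the root of F, and 95% intervals use the fit's total degrees of freedom. Log2 CPM values use a prior count of 2. DESeq2 (1.42.0), limma-voom (limma 3.58.1), other scalings and filters, the replicate block, an adjusted p of 0.05, other groupings of *Irf5*, another length and leaving out each library were alternatives. The edgeR, DESeq2, limma-voom and block fits were tested on simulated data. The members and gene lists were chosen with earlier results of these data known. Genes named are the 9 factors, 5 further STAT and IRF genes (others are not reported here), *Ifnb1*, cell type markers, the up to 5 list genes of smallest p with an edgeR adjusted p under 0.05 (otherwise 3), the 3 nearest patterns per interferon-induced factor, and genes sharing exons with these, which were added after their values were seen. Libraries of 1 group were no duplicates: the chi-square per degree of freedom between replicates was 17.6 and 19.0, against 1 for counting noise. The labels name no batch.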

Additional observations from a re-analysis of the deposited data

How the results depend on the processing

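The log2 fold changes of the 9 factors kept their sign under all 12 alternatives run. At an adjusted p under 0.01, where edgeR called 0 of the 9, DESeq2 called 4 (4 also at 0.05), DESeq2 with the replicate block 2 (*Stat2* and *Irf7*), and each other alternative with that threshold 0; at an adjusted p under 0.05 edgeR called 3. Of the 5 further STAT and IRF genes, 0 were called under each alternative run. DESeq2 at 0.05 and DESeq2 with the block were chosen after seeing the data. The 3 calls at 0.05 fell to 1 without the filter on low counts. Not all 3 were kept in any fit without 1 library, and such fits assume that the lone sample of its group varies like the others. With a replicate block, edgeR gave 0 calls at 0.01 and 1 at 0.05 (*Irf7*), with an adjusted p of 0.0822 for *Stat2* and 0.100 for *Irf9*. DESeq2 with the block gave an adjusted p of 0.104 for *Irf1* and 0.0703 for *Irf9*. In edgeR's block fit *Jak2* had an edgeR adjusted p of 0.142 and *Ifngr1* of 0.0419. The calls at 0.01 were 0 for ISGF3 and 0 for IRF1 targets (9 and 2 at 0.05). Over all 16269 tested genes the block fit called 0 at 0.01 and 50 lower at 0.05, against 92 lower at 0.05 without the block. Libraries share only a number: their deviations from the group means correlated at -0.057 between libraries of the same number across genes. The interferon-induced minus constitutive difference, -0.93, ranged from -0.9995 to -0.85 without each library, and was -0.76 with *Irf5* among the constitutive genes, which follows from the lower *Irf5*. Only 3 of the 9 factors kept their rank of level in unloaded cells with the longest transcript as length. At 70 counts or fewer per library, *Irf5* is limited by depth.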
